A study of Homo sapiens with 6 samples.

Results

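The genes described here encode Wnt ligands, their receptors and the regulators of the pathway: the WNT, FZD (Frizzled), DKK, SFRP, DVL, AXIN, GSK3 and TCF/LEF families with LRP5, LRP6, APC, CTNNB1, RNF43, ZNRF3 and the LGR receptors. They were taken by gene symbol among protein-coding genes, and the symbols, not measured values, decide membership; 41 of the 14538 genes in the table, of which 12824 are protein-coding, were members. The same symbols match 58 protein-coding genes in GENCODE 29, and the other 17 (APC2, DKK3, DKK4, LGR6, SFRP2, SFRP4, SFRP5, WNT1, WNT10A, WNT16, WNT2, WNT3, WNT5B, WNT6, WNT7A, WNT8A and WNT8B) were not analysed here. RNA came from HEK293T cells, an embryonic kidney line, of the INTS8-AID type, in which both copies of INTS8 carry a miniAID degron. Auxin directs destruction of the tagged protein, and INTS8 is a subunit of Integrator, which cleaves nascent RNA and ends transcription early at many genes. The compared groups were tagged cells that received auxin at 100 µM for 48 h and the same tagged cells without auxin, with 3 libraries in each. Untagged cells given auxin were not analysed here, so an effect of auxin itself and of INTS8 loss cannot be told apart, and the labels do not say whether the tagged line is 1 clone.

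Every value was taken from the table in which the authors deposited this comparison; it gives no value per library, so depth and spread between libraries are unknown here. No label says that the libraries were separate cultures, so p-values measure the spread between these libraries, which may be technical. Which group is the numerator of the fold change is not named in the header, and auxin over no auxin was assumed, as is usual. If the assumption is wrong, all directions below are inverted. The mRNA of INTS8 itself was 1.28-fold higher (adjusted p 1.33e-07) per the authors' deposited table, which checks no label because the tag acts on the protein. Levels are the authors' normalised group means, derived from their log2 level column and fold change, and standard errors were derived from the deposited p-values under a Wald test. RNA levels in a bulk sample cannot tell fewer cells of a kind from less RNA per cell.

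Wnt proteins are secreted lipid-modified signals that bind a Frizzled receptor together with LRP5 or LRP6 at the cell surface. Binding recruits Dishevelled and disables a cytoplasmic complex of AXIN, APC and GSK3 that otherwise marks beta-catenin for destruction, and the spared beta-catenin enters the nucleus and joins TCF/LEF factors on target genes. Several targets encode negative regulators of the same pathway, and in the developing kidney Wnt signals drive branching of the duct and formation of nephrons.

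Wnt genes moved in both directions after auxin, with most Frizzled receptors and all listed secreted antagonists higher, and LRP5, the Dishevelled genes and most TCF/LEF factors lower. At a deposited adjusted p under 0.05, 17 of 41 members rose, 13 fell and 11 did not pass. Among all listed genes 27.8% rose and 28.9% fell, and 41.5% and 31.7% of the members did so. At a change of at least 2-fold 8 members rose and 2 fell, or 19.5% and 4.88%, beside 7.88% and 1.36% of all listed genes. The median log2 fold change was 0.08 over the members (mean 0.30), 0.00 over all listed genes and -0.02 over protein-coding genes. All members are protein-coding, and of protein-coding genes 28.0% rose and 31.9% fell, or 7.06% and 1.43% at 2-fold. At the adjusted p threshold alone the share that fell was thus near the background. At 2-fold it was higher than the background but rests on 2 members, too few to read as an excess. The 17 rises included 8 of the 10 Frizzled genes.

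**Figure D1:**
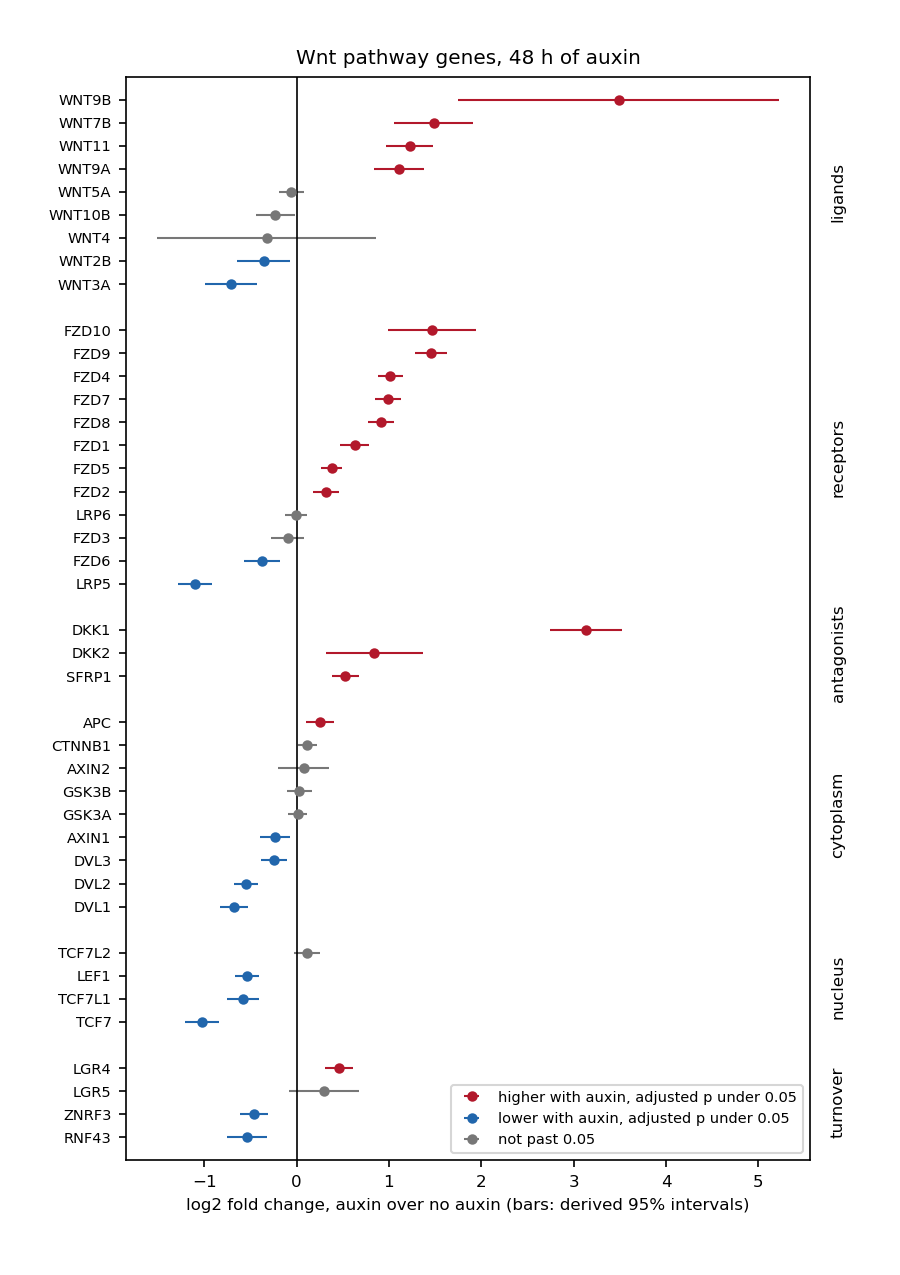
Log2 fold change (horizontal axis, auxin over no auxin) of the 41 Wnt members, grouped by role, with bars for derived 95% intervals and colour for the call at a deposited adjusted p of 0.05. Red points on the right include 8 Frizzled genes and all 3 listed antagonists, and blue points on the left include LRP5, 3 Dishevelled genes and 3 TCF/LEF factors, while WNT9B and WNT4 have the widest bars.

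Of 9 Wnt ligands 4 rose, each at least 2-fold, and 2 fell. That is 44.4% higher and 22.2% lower, beside 27.8% and 28.9% of all listed genes. At least 2-fold rises made up 7.88% of all listed genes. WNT11, a ligand known for beta-catenin-independent signalling and, in the mouse, for branching of the kidney duct, had a normalised level of 379 without auxin and 887 with auxin. In the authors' deposited table this was 2.34-fold (log2 fold change 1.23, derived standard error 0.13, adjusted p 4.89e-20), for a gene on chromosome 11 from 76186325 to 76206502 in hg38, minus strand. WNT9A (chromosome 1, 227918656 to 227947932, minus strand) went from a level of 193 to 415, or 2.15-fold (log2 fold change 1.11, derived standard error 0.14, adjusted p 1.55e-14) per the authors' deposited table. WNT7B (chromosome 22, 45920366 to 45977162, minus strand), a ligand needed for the kidney medulla in the mouse, was 2.79-fold higher (log2 fold change 1.48, derived standard error 0.22, adjusted p 8.15e-11) per the authors' deposited table, from a level of 42.9 to 120. The 11.2-fold rise of WNT9B (chromosome 17, 46851583 to 46886738, plus strand; adjusted p 2.31e-04), the ligand that induces nephron formation in the mouse, per the authors' deposited table started from a level of 1.36, so that its log2 fold change of 3.49 had a derived standard error of 0.89. Among these 4 ligands WNT11 was thus the highest in both groups, and WNT9B had the lowest mean level of all members, 8.

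WNT3A, a prototypic activator of beta-catenin, fell from a level of 263 to 161, or 0.612-fold (adjusted p 2.97e-06) per the authors' deposited table. WNT2B was at 0.782-fold (adjusted p 0.0289) per the authors' deposited table. WNT5A, a ligand of beta-catenin-independent signalling, did not pass at 0.962-fold (adjusted p 0.5003), nor did WNT10B at 0.851-fold (0.0551) or WNT4 at 0.799-fold (0.671) per the authors' deposited table, the last with a mean level of 10. Per kilobase of listed length, WNT5A was the highest ligand without auxin at 260, above WNT10B at 213 and WNT11 at 200, and WNT11 was the highest with auxin at 467. The summed ligand level per kilobase was 888 without auxin and 1145 with auxin, and the share of the highest ligand went from 29.2% (WNT5A) to 40.8% (WNT11). WNT9A and WNT3A are neighbours on chromosome 1, on opposite strands with 59.1 kb between them, and their log2 fold changes were 1.11 and -0.71 per the authors' deposited table.

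Of 10 Frizzled genes, which encode the transmembrane receptors that bind Wnt, 8 rose, FZD6 fell and FZD3 did not pass. That is 80.0% higher and 10.0% lower, beside 27.8% and 28.9% of all listed genes, with a median log2 fold change of 0.77. The planned group also held LRP5 and LRP6, and counting Frizzled genes alone was not planned. Of these 12 genes 66.7% rose and 16.7% fell, with a median log2 fold change of 0.50. FZD9 had a normalised level of 638 without auxin and 1749 with auxin. This was 2.74-fold per the authors' deposited table (log2 fold change 1.45, derived standard error 0.09, adjusted p 1.71e-58), on chromosome 7 from 73433778 to 73436120, plus strand. FZD10 (chromosome 12, 130162459 to 130165740, plus strand) had a fold of 2.77 (log2 fold change 1.47, derived standard error 0.24, adjusted p 9.49e-09) per the authors' deposited table at a lower level, 31.3 without auxin and 86.6 with auxin. FZD4 (chromosome 11, 86945679 to 86955395, minus strand), the receptor that also binds norrin, went from 1004 to 2028, or 2.02-fold (log2 fold change 1.01, derived standard error 0.07, adjusted p 2.05e-48) per the authors' deposited table. These 3 genes passed the 2-fold limit, and FZD7 lay just under it at 1.99-fold (adjusted p 6.05e-42) per the authors' deposited table.

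FZD8 was the highest Frizzled per kilobase in both groups, at 786 and 1485. Its fold was 1.89 (log2 fold change 0.92, derived standard error 0.07, adjusted p 3.51e-35) per the authors' deposited table. FZD1, FZD5 and FZD2 rose by less, at 1.55, 1.30 and 1.25-fold, with adjusted p of 8.42e-14, 8.21e-10 and 2.95e-05 per the authors' deposited table. FZD6, a receptor tied to planar cell polarity, fell from a level of 592 to 457, or 0.772-fold (adjusted p 5.26e-04), and FZD3, likewise tied to planar polarity and axon growth, was at 0.936-fold (0.381) per the authors' deposited table. The summed Frizzled level per kilobase was 2666 without auxin and 4573 with auxin, a ratio of 1.72. FZD8 held 29.5% of it without auxin and 32.5% with auxin, FZD9 10.2% and 16.3%, and FZD6 5.65% and 2.54%, so the rank of FZD9 among the receptors went up and that of FZD6 went down.

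Most of the Frizzled genes that rose, 7 of 8, have 1 coding exon, a feature that their selection did not use. In GENCODE 29, 7 of the 10 (FZD1, FZD2, FZD5, FZD7, FZD8, FZD9 and FZD10) have 1 coding exon, and all 7 rose, with log2 fold changes from 0.32 to 1.47. The other 3 were FZD4 with 2 coding exons, which rose, FZD6 with 6, which fell, and FZD3 with 6, which did not pass. Of all 769 protein-coding genes with 1 coding exon 44.6% rose and 16.1% fell, and of 12005 with 2 or more 27.0% rose and 33.1% fell, with median log2 fold changes of 0.19 and -0.03. No other member has 1 coding exon, and of the 34 with 2 or more 10 rose and 13 fell. The 7 genes span 2.34 to 7.31 kb, beside 9.72 kb for FZD4, 34.4 kb for FZD6 and 80.1 kb for FZD3. Across the 41 members Spearman's rho with the log2 fold change was -0.57 for the number of coding exons and -0.38 for gene span, and across 12774 protein-coding genes it was -0.20 and -0.13. The member values include the same 7 Frizzled genes, so they are no separate observation. Genes are not independent replicates, and this grouping was chosen after the values were seen, so no test is given.

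**Figure D2:**
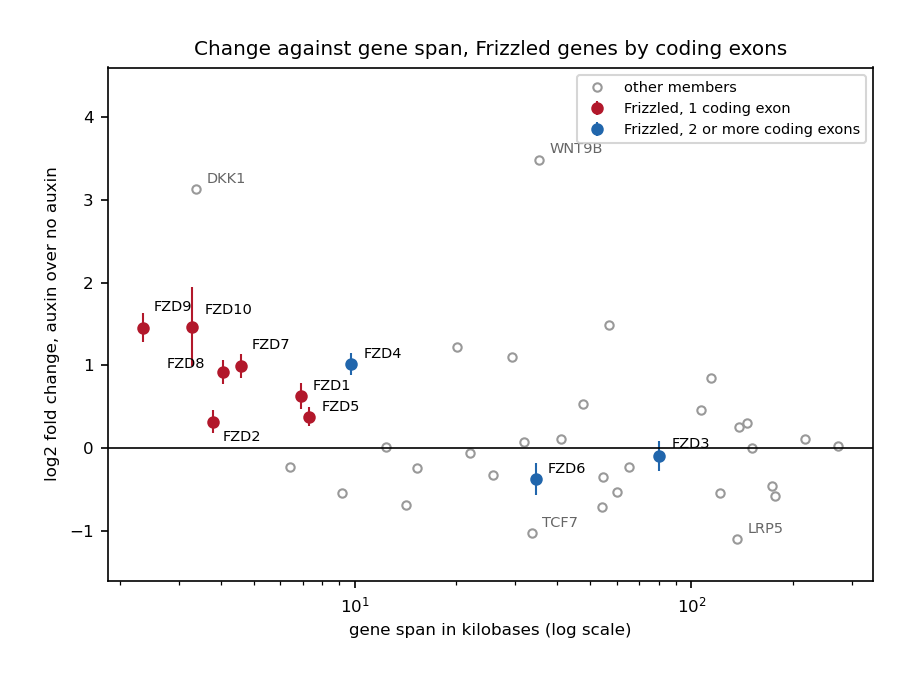
Log2 fold change of the 41 members against gene span in kilobases (log axis), with Frizzled genes coloured by their number of coding exons and bars for derived 95% intervals. The 7 red Frizzled genes with 1 coding exon lie between 2.34 and 7.31 kb and all above 0, while FZD6 and FZD3, with longer spans, lie below it.

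The co-receptors LRP5 and LRP6 bind Wnt together with Frizzled and carry the signal to AXIN. LRP5 (chromosome 11, 68312591 to 68449275, plus strand) fell from a normalised level of 5048 without auxin to 2355 with auxin. It was at 0.467-fold (log2 fold change -1.10, derived standard error 0.09, adjusted p 1.01e-30) per the authors' deposited table, the largest fall of any member. LRP6 was at 0.998-fold (adjusted p 0.969) per the authors' deposited table, with a derived 95% interval of the log2 fold change from -0.13 to 0.12. Per kilobase LRP5 was above LRP6 without auxin, at 975 and 461, and level with it with auxin, at 455 and 460.

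Promoter sequences are shown for FZD8, the highest Frizzled gene, for FZD9, which had the largest Frizzled rise at a mean level of at least 100, for LRP5, the co-receptor that fell, and for DKK1, the antagonist described next. Each is the 250 bases before the RefSeq start in GRCh38.p14, which matches the listed gene start, read 5′ to 3′ on the gene's strand: FZD8 at chr10:35642297-35642546, minus strand, FZD9 at chr7:73433528-73433777, plus strand, LRP5 at chr11:68312341-68312590, plus strand and DKK1 at chr10:52314031-52314280, plus strand. Capitals mark the letters of a TCF/LEF core, CTTTGA on either strand.
FZD8: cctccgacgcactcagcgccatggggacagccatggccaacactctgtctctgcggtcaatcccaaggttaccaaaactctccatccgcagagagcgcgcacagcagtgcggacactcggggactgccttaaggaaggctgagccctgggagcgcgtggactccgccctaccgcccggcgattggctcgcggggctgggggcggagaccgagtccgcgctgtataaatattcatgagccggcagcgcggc
FZD9: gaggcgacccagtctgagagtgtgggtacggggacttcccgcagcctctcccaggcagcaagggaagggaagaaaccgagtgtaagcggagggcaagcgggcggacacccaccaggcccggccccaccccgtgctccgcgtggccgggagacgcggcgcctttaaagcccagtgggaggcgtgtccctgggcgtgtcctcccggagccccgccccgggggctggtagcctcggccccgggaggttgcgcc
LRP5: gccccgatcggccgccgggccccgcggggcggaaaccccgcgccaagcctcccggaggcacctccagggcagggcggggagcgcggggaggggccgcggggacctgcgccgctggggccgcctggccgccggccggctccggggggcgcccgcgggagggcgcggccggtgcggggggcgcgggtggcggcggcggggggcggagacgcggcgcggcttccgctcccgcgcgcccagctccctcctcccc
DKK1: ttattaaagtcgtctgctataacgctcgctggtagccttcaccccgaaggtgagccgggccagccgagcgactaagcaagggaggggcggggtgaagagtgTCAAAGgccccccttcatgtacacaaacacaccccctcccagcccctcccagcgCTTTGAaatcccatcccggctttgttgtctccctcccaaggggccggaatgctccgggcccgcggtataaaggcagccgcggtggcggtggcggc
Those of FZD8, FZD9 and LRP5 hold no such match, with GC contents of 65.2%, 72.4% and 87.2%, and that of DKK1 holds 2, beginning 149 and 95 bases before the start, at a GC content of 62.8%. Of the 41 members 27 had a promoter in the RefSeq table, 34 promoters in all, and DKK1 was the one gene among them with a CTTTGA match, 2.94% of the promoters, beside 11.2% of all 35116 promoters of this length. The AP-1 motif TGANTCA was found in 1 member promoter (RNF43) and in 6.57% of all, and the CRE motif TGACGTCA in 1 (DVL1) and in 1.65% of all, both on either strand. The motifs do not overlap in these promoters. A match describes letters in this window and is no evidence of binding. Median GC content was 68.4% over the member promoters and 58.0% over all.

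All 3 listed secreted antagonists rose, beside 27.8% of all listed genes. DKK1, which binds LRP5 and LRP6 and blocks their use by Wnt, had a normalised level of 30.3 without auxin and 266 with auxin. It was 8.77-fold higher (log2 fold change 3.13, derived standard error 0.20, adjusted p 2.53e-54) per the authors' deposited table, on chromosome 10 from 52314281 to 52317657, plus strand. Its exons overlap PRKG1-AS1 on the other strand. DKK2, a related ligand of the same co-receptors, went from a level of 33.3 to 59.6, or 1.79-fold (adjusted p 3.56e-03) per the authors' deposited table. SFRP1, a secreted protein with a Frizzled-like domain that binds Wnt, went from 869 to 1253, or 1.44-fold (adjusted p 5.82e-12) per the authors' deposited table. SFRP1 remained the most abundant of the 3 per kilobase, with 88.2% of their sum without auxin and 63.2% with auxin, and the sum itself went from 220 to 444.

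Dishevelled proteins relay the signal from Frizzled, and all 3 genes fell, beside 28.9% of all listed genes. DVL1, DVL2 and DVL3 were at 0.623, 0.684 and 0.844-fold, with adjusted p of 1.54e-17, 4.62e-15 and 1.09e-03 per the authors' deposited table. The level of DVL1 was 4757 without auxin and 2965 with auxin, that of DVL2 4570 and 3125, and that of DVL3 2953 and 2493. Summed per kilobase they went from 4258 to 3031, a ratio of 0.712. Their sum was above that of the Frizzled genes without auxin and below it with auxin, and this order rests on levels per kilobase of the lengths that the authors list. With GENCODE transcript lengths, which for DVL3 is 5241 bases in place of 2289, the sums were 3704 and 2525 for Dishevelled and 2955 and 4985 for Frizzled, in the same order.

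In the destruction complex AXIN1 fell, APC rose and the other listed genes did not pass. AXIN1, the scaffold of the complex, was at 0.851-fold (adjusted p 0.0111) and APC, a large scaffold and tumour suppressor, at 1.19-fold (2.67e-03) per the authors' deposited table. GSK3A and GSK3B, the kinases that phosphorylate beta-catenin, did not pass at 1.01 and 1.0197-fold, with log2 fold changes of 0.01 and 0.03 per the authors' deposited table and derived standard errors of 0.05 and 0.07. CTNNB1, which encodes beta-catenin and was the highest member at a mean level of 22832, was at 1.08-fold with an adjusted p of 0.0500015 per the authors' deposited table, just outside the threshold. AXIN2, a scaffold induced by the pathway, was at 1.05-fold (adjusted p 0.667) per the authors' deposited table, from a level of 234 to 247. Of the 9 cytoplasmic genes 1 rose, 4 fell and 4 did not pass, and none changed 2-fold. That is 11.1% higher and 44.4% lower, beside 27.8% and 28.9% of all listed genes.

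Of the 4 TCF/LEF factors, which bind beta-catenin at target genes, 3 fell and none rose. That is 75% lower, beside 28.9% of all listed genes. TCF7 (chromosome 5, 134114681 to 134148210, plus strand) had a normalised level of 789 without auxin and 388 with auxin. Its fold was 0.492 (log2 fold change -1.02, derived standard error 0.09, adjusted p 1.38e-26) per the authors' deposited table, and its exons overlap SKP1 on the other strand, which was itself 1.62-fold higher there. TCF7L1, the member best known as a repressor, was at 0.669-fold (adjusted p 1.68e-10) and LEF1 at 0.688-fold (1.80e-14) per the authors' deposited table. TCF7L2 did not pass at 1.08-fold (adjusted p 0.178) per the authors' deposited table. Per kilobase LEF1 was the highest of the 4 in both groups, at 503 and 346, and TCF7L2, at 313 without auxin, came close to it with auxin at 338.

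Among genes of receptor turnover both ligases fell and LGR4 rose. Of these 4 genes, with LGR5, 25% rose and 50% fell, beside 27.8% and 28.9% of all listed genes. RNF43 and ZNRF3, ubiquitin ligases that remove Frizzled from the cell surface, were at 0.691-fold (adjusted p 5.30e-06) and 0.725-fold (1.06e-08) per the authors' deposited table. ZNRF3 went from a level of 3337 without auxin to 2420 with auxin and RNF43 from 399 to 275. RNF43 shares exon sequence on its own strand with SUPT4H1, which was at 1.08-fold (adjusted p 0.0981) per the authors' deposited table. LGR4, a receptor for the R-spondins that block these ligases, rose from a level of 1979 to 2727, or 1.38-fold (adjusted p 1.00e-08) per the authors' deposited table. LGR5, its stem cell relative, had a mean level of 87 and did not pass at 1.23-fold (adjusted p 0.175) per the authors' deposited table.

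**Figure D3:**
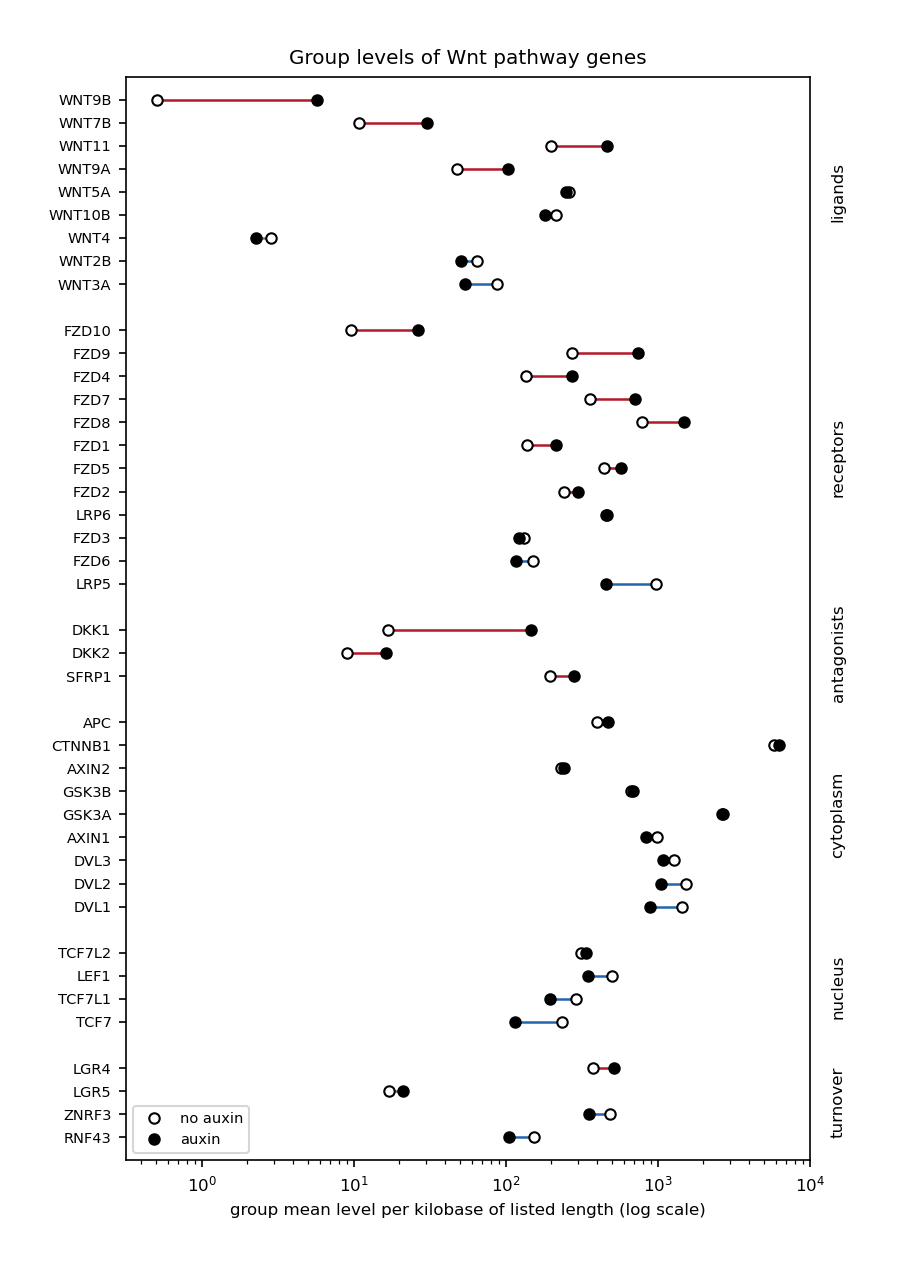
Normalised group mean level per kilobase of the authors' listed length (log axis) for the 41 members, with open circles for no auxin and filled circles for auxin, joined by lines coloured by the call. CTNNB1 is the highest in both groups, WNT9B and WNT4 are the lowest without auxin, and FZD8 with auxin stands above LRP5, which lies beside LRP6.

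**Figure D4:**
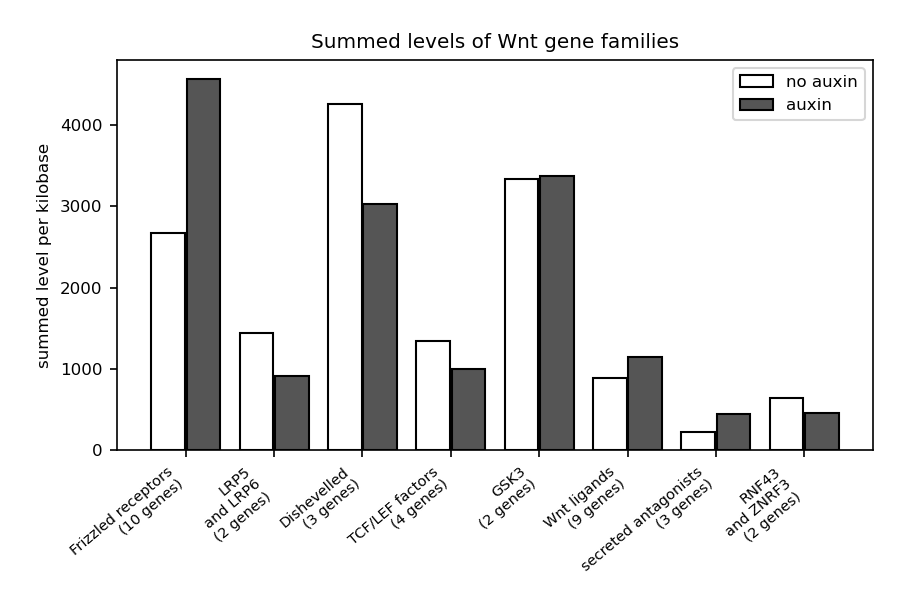
Summed level per kilobase of the authors' listed length (vertical axis, from 0) of 8 Wnt gene families in cells without auxin (white bars) and with auxin (grey bars). No error can be given because the table holds no values per library. The Frizzled sum goes from 2666 to 4573 while those of Dishevelled, LRP5 with LRP6, TCF/LEF, and RNF43 with ZNRF3 are lower with auxin.

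Sums per family put these changes on one scale. The ratio of the summed level per kilobase with auxin to that without auxin was 1.72 for Frizzled, 2.02 for the antagonists and 1.29 for the ligands. It was 0.637 for LRP5 with LRP6, 0.712 for Dishevelled, 0.741 for TCF/LEF and 0.717 for RNF43 with ZNRF3, and 1.01 for GSK3. With GENCODE lengths the same ratios ran from 0.639 to 2.02, but the order of the sums depended on the lengths used. Without auxin GSK3 was at 3337 and Dishevelled at 4258 with listed lengths, and at 5861 and 3704 with GENCODE lengths. RNF43 with ZNRF3 was at 638 and the ligands at 888 with listed lengths, and at 1324 and 869 with GENCODE lengths. Differences between families were not tested.

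Other genes of the pathway, from a list of 76 of which 69 were analysed here, also split, with 21 higher, 29 lower and 19 not past the threshold. That is 30.4% and 42.0%, beside 27.8% and 28.9% of all listed genes, with a median log2 fold change of -0.10. The lowest mean level among these 69 was 86. Of protein-coding genes 31.9% fell, and 33.9% did so where the mean level reached 100, so 28.9% is a low background for falls here. With centring, described below, 24 of the 69 were higher and 24 lower, so falls outnumbered rises only without it. The largest rise was NKD1, a Dishevelled-binding inhibitor induced by the pathway, from a level of 1506 without auxin to 7922 with auxin, or 5.26-fold (adjusted p 1.47e-300) per the authors' deposited table. BCL9L, a coactivator that bridges beta-catenin to Pygopus, was 2.695-fold higher, the kinase PRKCA 2.50-fold and the corepressor TLE4 2.16-fold per the authors' deposited table. KREMEN1, a receptor that acts with DKK1, was at 0.536-fold (adjusted p 2.70e-38) and CTNNBIP1, which blocks binding of beta-catenin to TCF, at 0.541-fold (8.85e-14) per the authors' deposited table. TLE2, a corepressor, and TLE5, its truncated relative, were at 0.585 and 0.608-fold per the authors' deposited table. TLE genes thus went both ways, with TLE4 higher, TLE2 and TLE5 lower, and TLE1, named after its value was seen, at 0.974-fold (adjusted p 0.646) per the authors' deposited table.

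Textbook target genes of beta-catenin and TCF went both ways. Of 30 listed targets 23 were analysed here, and 14 rose (10 of them at least 2-fold), 7 fell and 2 did not pass. That is 60.9% higher and 30.4% lower, beside 27.8% and 28.9% of all listed genes, with a median log2 fold change of 0.49. EPHB3, an ephrin receptor, went from a level of 208 without auxin to 3070 with auxin, or 14.7-fold with an adjusted p listed as 0 per the authors' deposited table. DKK1 and NKD1, given above, and PROX1, a homeobox factor at 2.72-fold (adjusted p 1.47e-51) per the authors' deposited table, were the next largest rises. CCND1 (cyclin D1) at 1.70-fold and SP5, a repressor in the pathway, at 2.35-fold were also higher per the authors' deposited table. MYC at 0.867-fold (adjusted p 9.92e-04) and BIRC5 at 0.883-fold (3.17e-03) were lower per the authors' deposited table. CCND1, SP5, MYC and BIRC5 were chosen after their values were seen. The 4 largest falls were TCF7, LEF1, RNF43 and TNFRSF19, the last at 0.708-fold (adjusted p 1.29e-05) per the authors' deposited table. Of the 7 targets that are members 1 rose (DKK1), 4 fell and AXIN2 and LGR5 did not pass, and of the other 16 there were 13 rises and 3 falls. The list was written with earlier results of these data known, and many of these targets answer to other signals as well, so their counts are no measure of pathway activity.

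**Figure D5:**
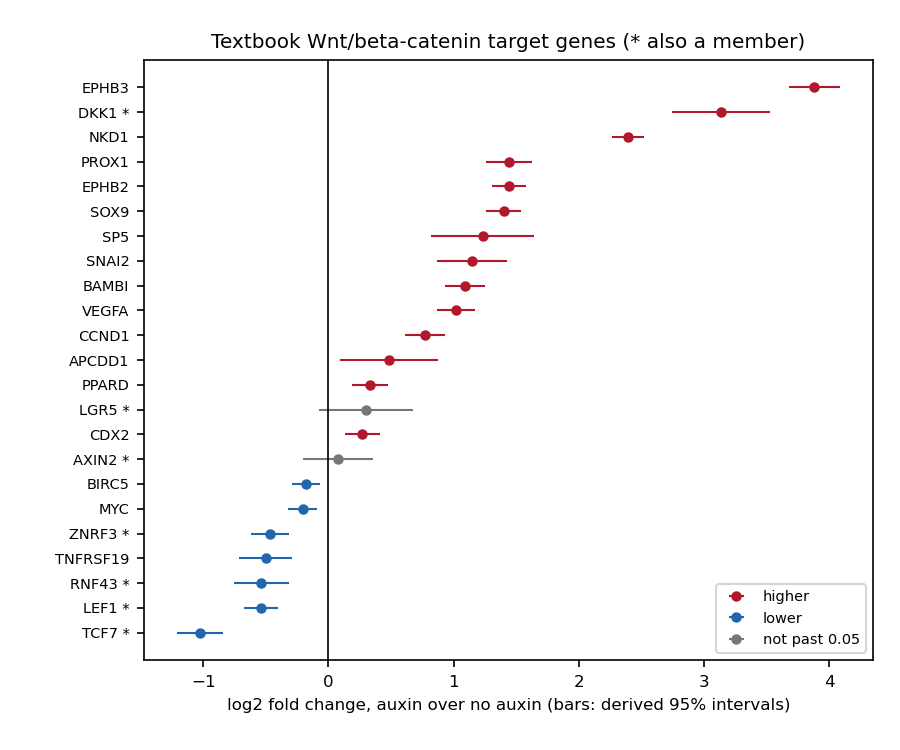
Log2 fold change (horizontal axis, auxin over no auxin) of the 23 analysed textbook targets of beta-catenin and TCF, with bars for derived 95% intervals (an upper limit for EPHB3, whose p is listed as 0) and an asterisk on those that are members. EPHB3, DKK1 and NKD1 lie farthest to the right, and TCF7, LEF1, RNF43 and ZNRF3 are among those on the left.

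Markers of the labelled tissue and of other cell types were read in the same table. Of 12 embryonic kidney markers 8 were analysed here, and 3 rose and 2 fell. That is 37.5% and 25%, beside 27.8% and 28.9% of all listed genes. The summed level of these 8 per kilobase was 2909 without auxin and 2870 with auxin. Of 12 neuronal markers 6 were analysed here, and STMN2, ELAVL4, DCX, SNAP25, RBFOX3 and GAP43 were not. The 6 analysed all rose, beside 27.8% of all listed genes, and their sum went from 1013 to 10181, with none listed at 0. TUBB3, from 329 to 7231 per kilobase, and NEFM, from 146 to 1583, made up most of that sum with auxin, and the other 4 (SYT1, MAP2, NEFL and ELAVL3) rose by 1.59 to 4.10-fold per the authors' deposited table. The last of these, ELAVL3, had a mean level of 12. Of 9 blood cell markers 3 were analysed and 2 rose, from a sum of 119 to 882, and of 9 fibroblast and mesenchymal markers 2 were analysed and 1 rose, from 4637 to 4960. The 2 blood markers that rose were CD68 at 10.0-fold (adjusted p 3.63e-178) and HBA1 at 5.01-fold (2.03e-24) per the authors' deposited table. HBB, at a mean level of 1, did not pass. These marker lists were written with earlier results of these data known. The neuronal and blood marker rises are in the same comparison as those of the Frizzled genes and DKK1. The part of the marker rises in the Frizzled and DKK1 changes was not tested.

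Some limits touch single members. The exons of 16 of the 41 members overlap another GENCODE 29 gene, 6 of them on the same strand, and the sources used here do not say whether reads were counted by strand. FZD4 overlaps PRSS23 on the other strand, which was 1.82-fold higher (adjusted p 9.55e-25) per the authors' deposited table. Listed lengths differ over 1.5-fold from the GENCODE transcript for 7 members (AXIN2, DVL3, FZD2, GSK3B, RNF43, WNT9B and ZNRF3), which moves their levels per kilobase and leaves their fold changes as they are. Mean levels were under 100 for 6 members, of which 2 were under 20.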

How the data were processed

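RNA-seq of 3 libraries with and 3 without auxin was analysed, made from rRNA-depleted total RNA with a directional kit per the labels' protocols. The builds hg38 and dm6 and the tools STAR 2.7.3a and DESeq2 are named per the submitters' processing notes; counting tool, annotation and formula are not given in the sources used here. The authors deposited 1 table of their own comparison: a mean level (a score, since normalised means were rounded), a fold change ratio, a log2 fold change, p-values with adjusted p-values, and a log2 level. Depth is unknown, and planned tests per library were replaced by the deposited adjusted p at 0.05.

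Where the mean level was at least 100 (12195 genes), the log2 level column matched the fold change's numerator group per kilobase within 0.0165, so group levels were derived from it (76 genes had none). Standard errors were obtained by dividing each log2 fold change by the normal quantile that its deposited p-value implies. Coding exons and overlaps came from GENCODE 29 (principal transcript), where all 41 member identifiers were found. Coordinates are the authors', in hg38. The rule for members uses symbols alone, but it and the gene lists were chosen with earlier results of these data known. Named genes were the members and, from each of the 2 other lists, the 4 largest changes in each direction past 0.05 with a mean level of at least 20. Centring was tested on simulated data. Alternatives were an adjusted p of 0.01, limits of 1.5-fold and 2-fold, mean levels of at least 20 and 100, centring, and adjustment over protein-coding genes alone. Computation used matplotlib 3.10.9, pandas 2.3.3, scipy 1.17.1, numpy 2.4.6 and Python 3.11.15.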

Additional observations from a re-analysis of the deposited data

How the results depend on the processing

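No paired analysis was possible because the table holds no values per library, and for the same reason no library could be left out. With a limit of 1.5-fold the count of lower members went from 13 to 4, of higher and lower other pathway genes from 21 and 29 to 7 and 8, and of lower targets from 7 to 1. With a limit of 2-fold the counts were 8 higher and 2 lower members, 5 and 0 other pathway genes, 1 lower target and 3 higher Frizzled genes. These limits require a larger change by construction. All other counts stayed within 1.5 times the main one, with 13 to 18 higher and 11 to 13 lower members at an adjusted p of 0.01, the mean level filters, centring and adjustment over protein-coding genes. At a mean level of at least 100, however, 35 members remained, with 13 higher and 13 lower, or 37.1% each. Thus rises no longer outnumbered falls there. Among protein-coding genes at that level 28.1% rose and 33.9% fell. With centring, other pathway genes were at 24 higher and 24 lower. The member median log2 fold change ran from 0.01 to 0.11. The count of Frizzled genes alone was not planned, and its alternatives were chosen after seeing the data. Centring shifted every gene so that the median log2 fold change, -0.03 at mean levels of 100 or more, became 0. LRP6, which did not pass, changed sign from -0.003 to 0.027 under it. CTNNB1 passed with centring and with adjustment over protein-coding genes, and AXIN1 and WNT2B no longer passed at 0.01. The other 48 of the 52 named genes kept their call and direction under these 3 alternatives (an adjusted p of 0.01, centring and adjustment over protein-coding genes), and single genes were not followed under the fold limits and mean level filters. Depth per library is unknown, and members at low mean levels have wide errors.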

Other observations

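The length listed for AXIN2 is 1019 bases, beside 4259 for its principal transcript in GENCODE 29, and its exons overlap AC004805.1 on the same strand. Its level per kilobase (230 without auxin and 243 with auxin) is therefore not comparable with those of other members. TLE2 and TLE5 fell and TLE4 rose, while TLE3 was at 1.10-fold (adjusted p 0.0471) per the authors' deposited table, so the corepressor family had members on both sides of 0.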
